A study of Mus musculus with 8 samples.

Results

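Male germ cells express their own forms of several protein chaperones beside the general forms that most cells use. In testes of juvenile mice, 10 such genes were followed, of 24652 genes for which counts were summed. The 6 germ cell forms were Hspa2, Hspa1l, Hspa4l, Calr3, Pdilt and Clgn, and the 4 general forms were Hspa8, Hspa4, Calr and Canx. The genes were taken by name for what they are known to do, with earlier results of these data known.

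HSP70 chaperones bind and release unfolded proteins in the cytosol and nucleus, helped by J-domain partners, which deliver clients, and by nucleotide exchange factors, which reset the cycle. In the endoplasmic reticulum, calnexin and calreticulin hold glycoproteins while protein disulfide isomerases form their disulfide bonds. In the testis, germ cell forms of these chaperones appear from meiosis onward, and those of the endoplasmic reticulum are known for folding the surface proteins with which sperm bind the egg.

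Testes were taken at postnatal day 12, when the first wave of germ cells has reached the early stages of meiosis, from 4 wild type and 4 Morc2b-/- males on a mixed strain background, with 1 RNA-seq library for each pair of testes. The Morc2b-/- males lack exon 2 of Morc2b, which holds the whole coding region and was replaced by a PGKNeo cassette in every cell of the animal, in a line derived from V6.5 embryonic stem cells. Morc2b encodes a germ cell member of the microrchidia family of chromatin proteins. The series design text names the controls as Morc2b+/-, whereas the label of each control sample and the methods give wild type, and the sample labels were followed. The question was whether loss of Morc2b changed the levels of these transcripts. In whole testes, fewer cells of a type and less RNA per cell cannot be told apart.

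The libraries held 27144796 to 36941755 counts on transcripts. Morc2b was at 11.7, 16.2, 0.857 and 40.0 counts per 1000000 counts (CPM) in wild type replicates 1 to 4 and at 0.323, 0.270, 3.29 and 0.0688 CPM in Morc2b-/- replicates 1 to 4. The library labelled Morc2b-/- replicate 3 therefore held a higher Morc2b level than wild type replicate 3. The summed level of 8 spermatid markers, genes of germ cells later than this age is known to hold, was 149 CPM in wild type replicate 1, 302 CPM in the library labelled Morc2b-/- replicate 3 and 3.30 to 34.0 CPM in the other 6 libraries. Tnp1, Tnp2, Prm1 and Prm2 made up most of both high sums. Spaca1 was instead highest in Morc2b-/- replicate 4, at 1.68 CPM, against 1.12 CPM in wild type replicate 1 and in the library labelled Morc2b-/- replicate 3. Each of these 8 markers was detected in at least 5 libraries, and Prm1, Prm2 and Tnp2, which encode proteins that pack sperm DNA, were at 0 in wild type replicate 4 and Morc2b-/- replicate 4. Wild type replicate 1 also held 290 CPM over 7 epididymis markers, against 0.817 to 16.0 CPM elsewhere. Spink8, Crisp1, Ces5a and Defb42, at 118, 84.4, 46.5 and 40.8 CPM, made up nearly all of that sum. Lcn5 had 0 counts in every library, Lcn8 reached only 0.164 CPM, and Defb20 was highest in wild type replicate 2, at 0.807 CPM against 0.327 CPM. Testicular markers were present in every library, with 6337 to 7773 CPM over 7 Sertoli cell genes and 1601 to 2937 CPM over 8 leptotene and zygotene spermatocyte genes. Clu alone held 5493 to 6790 CPM of the Sertoli sum, with Wt1 at 387 to 490 CPM, and Gata4 had 1 count in all.

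How well each chaperone could be counted depended on its sequence and its transcripts. The HSP70 genes resemble each other most. The coding sequence of Hspa2 was identical to that of Hspa8 at 75.6% of aligned bases, and that of Hspa1l was identical to Hspa8 at 74.0%. Hspa2 and Hspa1l were identical at 76.3%. Hspa1l was closer still to the heat-inducible genes Hspa1a and Hspa1b, at 83.4% and 83.2%, and shared an unbroken run of 233 bases with Hspa1a. The 30 coding bases below are shown because that run begins within them. They were read from the NCBIM37 transcripts 5′ to 3′, and capitals mark bases that differ from Hspa1l.
Hspa1l: cctggggggtggcacgttcgacgtgtccat
Hspa1a: cctggggggCggcacgttcgacgtgtccat
Hspa1b: cctggggggCggcacgttcgacgtgtccat
Hspa8: cTtgggAggtggcacTttTgaTgtgtcAat
Hspa2: cctgggCggGggcacCttcgaTgtgtccat
The window covers coding bases 603 to 632 of Hspa1l, 597 to 626 of Hspa1a, Hspa1b and Hspa8, and 606 to 635 of Hspa2. Hspa1a and Hspa1b each differed from Hspa1l at 1 of these bases, Hspa2 at 4 and Hspa8 at 6.

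Reads of 75 bases from stretches that recur elsewhere in the genome align to more than 1 place and were not counted. Of the 75-base windows along the transcript, 69.5% in Hspa8, 54.8% in Hspa1a, 55.8% in Hspa1b and 7.22% in Hspa1l had another exact match in the genome. The share was 2.80% or less in the other 8 members. Hspa8 levels therefore rest on the remaining windows of its transcript, and they are lower than an unrestricted count would give. The other forms diverged further from their general forms. Coding identity was 67.5% between Hspa4l and Hspa4, 64.6% between Calr3 and Calr, 67.1% between Clgn and Canx, and 58.0% between Pdilt and P4hb, the general protein disulfide isomerase. No 75-base coding window was shared within any of these pairs, nor between Hspa8 and either Hspa2 or Hspa1l. The coding matches of Hspa8 therefore lie at other places in the genome than these genes.

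In NCBIM37, the build of the authors' alignments, Hspa4l lies on chromosome 3 from 40548417 to 40600025 on the plus strand and Pdilt on chromosome 7 from 126630101 to 126666996 on the minus strand. Chromosome 8 carries Calr3 from 74948075 to 74967769 and Calr from 87365749 to 87370833, both on the minus strand, and Clgn from 85913766 to 85952451 on the plus strand. Hspa8 lies on chromosome 9 from 40609067 to 40613283 on the plus strand. On chromosome 11, Canx spans 50107969 to 50139175 and Hspa4 spans 53073316 to 53113959, both on the minus strand. Hspa2 lies on chromosome 12 from 77505163 to 77507921 and Hspa1l on chromosome 17 from 35109648 to 35116229, both on the plus strand. Of the Hspa1l exon bases, 72.0% lie opposite the antisense gene Gm10501. Since the strand setting of the counting was not given in the sources used here, counts of Hspa1l are uncertain in that overlap.

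Clgn, which encodes the germ cell calnexin calmegin, and Canx, which encodes calnexin, had 0 counts in all 8 libraries. Each was listed as 3 transcripts, and reads that overlapped more than 1 listed transcript, 36.4% to 36.6% of the reads on transcripts, were set aside. A count of 0 allows up to 3 counts, or 0.0812 to 0.111 CPM by library, which limits the reads assigned and not the expression of these genes. Hspa2, with 2 listed transcripts, held 87 counts in all, and Calr3, also with 2, held 617, so reads on both transcripts of either gene were set aside too. The remaining 7 members passed the filter on low counts and were tested.

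Across those 7 members, no difference between the genotypes passed the test. By edgeR's quasi-likelihood test, 0 members had an adjusted p under 0.05, where 0% of 13507 tested genes did. At an unadjusted p under 0.05 the count of members was also 0, against 249 genes or 1.84% of all tested. The genotypes overlapped in all 7 members, whereas they did not overlap in 174 genes or 1.29%. The same fit did not call Morc2b, the deleted gene (log2 fold change −4.09, edgeR unadjusted p = 0.0079, adjusted p = 0.9998). A lack of calls in this fit therefore does not show that levels were equal. DESeq2 called 1 gene, Pkmyt1, which was lower in Morc2b-/- testes and is no chaperone, and limma-voom called 0. The median log2 fold change of the members was 0.04, beside 0.00 for all genes.

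**Figure D1:**
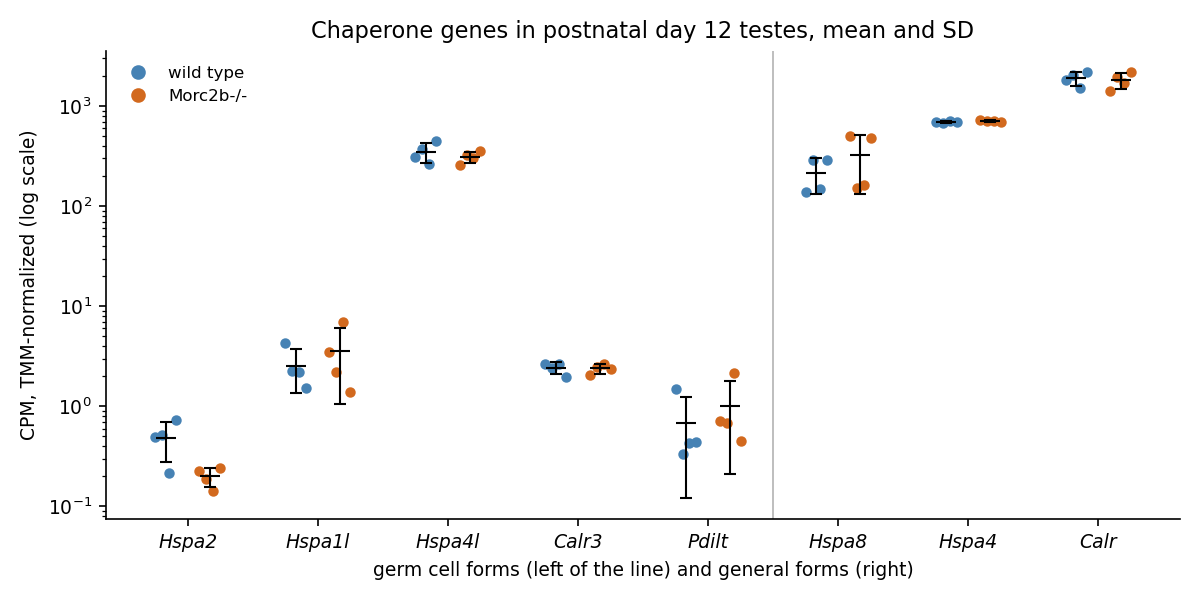
TMM-normalized CPM (log axis) of the 8 members with any counts; points are single libraries, 4 wild type (blue) and 4 Morc2b-/- (orange), with the mean and SD. Calr, Hspa4, Hspa8 and Hspa4l lie above 100 CPM in every library, and the other 4 germ cell forms lie between 0.143 and 7.02 CPM.

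Hspa8, the constitutive HSP70, varied more between libraries than any other abundant member. It was at 138, 290, 150 and 291 CPM in wild type replicates 1 to 4 and at 499, 151, 163 and 482 CPM in Morc2b-/- replicates 1 to 4. Morc2b-/- replicates 1 and 4 were above every wild type library, and the other pair of Morc2b-/- libraries lay among the low wild type libraries. The log2 fold change was 0.58 ± 0.45 (SE; 95% confidence interval −0.43 to 1.58; edgeR adjusted p = 0.9998). Leaving out Morc2b-/- replicate 1 lowered it to 0.29, and leaving out Morc2b-/- replicate 2 raised it to 0.81. The coefficient of variation over the 8 libraries was 55.1%, at percentile 96.1 of all tested genes. Among tested genes with a mean of at least 100 CPM it stood at percentile 99.97.

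Its inducible relatives were counted at low levels, which varied less between libraries. Hspa1a was at 11.8 ± 1.44 CPM in wild type and 12.7 ± 2.53 CPM in Morc2b-/- testes (SD, n = 4 each), and Hspa1b was at 9.93 ± 1.92 and 11.1 ± 1.06 CPM. Their log2 fold changes, 0.10 and 0.16, did not pass the edgeR test. Hspa1a and Hspa1b are 99.6% identical in coding sequence, so their separate values are uncertain. With 54.8% and 55.8% of their windows matched elsewhere, their levels are also lower than an unrestricted count would give.

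Hspa2, the germ cell HSP70 that spermatocytes need to complete meiosis, did not pass the filter on low counts and was not tested in the main edgeR fit. An edgeR fit without that filter called 0 members. Its wild type counts were 18, 14, 6 and 23 by replicate number, and its Morc2b-/- counts were 7, 7, 5 and 7. In CPM this was 0.485 ± 0.209 against 0.200 ± 0.0435 (SD, n = 4 each), and wild type replicate 3, at 0.214 CPM, lay within the Morc2b-/- range of 0.143 to 0.241 CPM. An exact two-sided permutation test of log2 CPM over the 70 assignments of 4 against 4 libraries gave p = 0.0857. Whether the few reads assigned to this gene stand for all its reads was not tested.

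Hspa1l, an HSP70 known from spermatids, was low. Wild type replicates 1 to 4 were at 4.25, 2.27, 2.18 and 1.51 CPM, and Morc2b-/- replicates 1 to 4 were at 3.52, 2.22, 7.02 and 1.38 CPM. The highest values were in the library labelled Morc2b-/- replicate 3 and in wild type replicate 1, and the genotypes overlapped. The log2 fold change was 0.47 ± 0.50 (SE; 95% confidence interval −0.65 to 1.59; edgeR adjusted p = 0.9998). Without the library labelled Morc2b-/- replicate 3 it turned to −0.11, without wild type replicate 1 it was 0.83, and without both it was 0.25.

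Hspa4l and Hspa4 belong to the HSP110 group, whose members act as nucleotide exchange factors for HSP70. Hspa4l, the form enriched in germ cells, was abundant already at this age. It was at 312, 375, 265 and 446 CPM in wild type replicates 1 to 4 and at 259, 328, 300 and 353 CPM in Morc2b-/- replicates 1 to 4. Wild type replicate 4 was the highest and Morc2b-/- replicate 1 the lowest, with the rest intermingled. The log2 fold change was −0.17 ± 0.16 (SE; 95% confidence interval −0.53 to 0.18; edgeR adjusted p = 0.9998), and it was −0.04 when wild type replicate 4 was left out. Hspa4 was the steadiest member, between 672 and 732 CPM in all 8 libraries. Its mean was 690 ± 14.4 CPM in wild type and 712 ± 18.3 CPM in Morc2b-/- testes (SD, n = 4 each). Its coefficient of variation of 2.73% stood at percentile 0.940 of all tested genes and at 3.09 of those with a mean of at least 100 CPM. Its log2 fold change was 0.04 (95% confidence interval −0.06 to 0.14).

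Calr and Calr3 encode calreticulin and its germ cell form calsperin, which is needed for the sperm protein ADAM3. Calr was the most abundant member. It was at 1825, 2044, 1517 and 2194 CPM in wild type replicates 1 to 4 and at 1406, 1949, 1699 and 2174 CPM in Morc2b-/- replicates 1 to 4. Both genotypes covered nearly the same range. The log2 fold change was −0.07 ± 0.15 (SE; 95% confidence interval −0.40 to 0.27; edgeR adjusted p = 0.9998), and it was 0.03 without Morc2b-/- replicate 1. Calr3 was counted at 2.67, 2.42, 2.64 and 1.95 CPM in wild type replicates 1 to 4 and at 2.04, 2.49, 2.66 and 2.37 CPM in Morc2b-/- replicates 1 to 4. Its counts were few and even between libraries, with a log2 fold change of −0.02 (95% confidence interval −0.40 to 0.37) that ranged from −0.11 to 0.05 when single libraries were left out. Of its 617 counts, 607 were on 1 of its 2 listed transcripts.

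Pdilt, a testis relative of the disulfide isomerases that works with calmegin, was the lowest member tested in the main fit, with 226 counts in all. Wild type replicates 1 to 4 were at 1.50, 0.330, 0.429 and 0.440 CPM, and Morc2b-/- replicates 1 to 4 were at 0.711, 0.676, 2.18 and 0.447 CPM. As for Hspa1l, wild type replicate 1 and the library labelled Morc2b-/- replicate 3 stood above the rest. The log2 fold change was 0.55 ± 0.61 (SE; 95% confidence interval −0.83 to 1.94; edgeR adjusted p = 0.9998). It was −0.16 without the library labelled Morc2b-/- replicate 3, 1.32 without wild type replicate 1 and 0.61 without both.

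**Figure D2:**
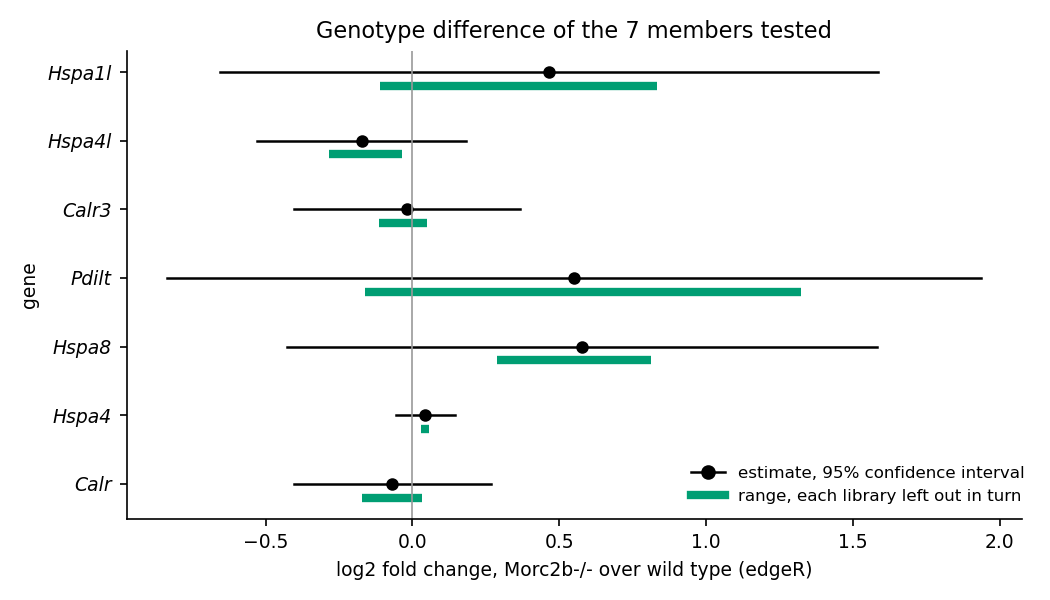
Log2 fold change of the 7 tested members, Morc2b-/- over wild type (edgeR), with the 95% confidence interval in black and, in green, the range of estimates when each of the 8 libraries is left out in turn. Every interval includes 0, and the intervals of Hspa1l, Pdilt and Hspa8 are wide, whereas that of Hspa4 runs from −0.06 to 0.14.

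Levels of different genes were compared per kilobase of transcript, as CPM per kb averaged over the 8 libraries. In this unit Calr stood at 848, Hspa4 at 152, Hspa8 at 113, Hspa4l at 34.8, Calr3 at 1.36, Hspa1l at 1.23, Pdilt at 0.392 and Hspa2 at 0.136. Hspa4 and Hspa8 overlapped between libraries, Calr3 lay within the range of Hspa1l, which reached from 0.557 to 2.84, and Pdilt and Hspa2 overlapped too. The values of Hspa8, Hspa2 and Calr3 leave out uncounted reads, so the place of these genes in the order is uncertain. For Hspa4l the length was that of its longest coding transcript, 9479 bases, and the annotation lists others as short as 480 bases. Within a sample, Hspa4l amounted to 24.7% ± 5.83 of Hspa4 per kb in wild type and 21.3% ± 3.30 in Morc2b-/- testes (SD, n = 4 each). The counted reads of Calr3 came to 0.163% ± 0.0453 of Calr and 0.166% ± 0.0257, in the same order, without those set aside.

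The balance between a germ cell form and its general form was then compared as the difference of their log2 CPM within each sample, by exact two-sided permutation tests whose smallest possible p is 0.029. Of 6 pairs, 5 gave a value, and Clgn with Canx gave none. Hspa4l minus Hspa4 was −1.01 ± 0.35 in wild type and −1.21 ± 0.23 in Morc2b-/- testes (SD, n = 4 each; exact permutation p = 0.371). Calr3 minus Calr differed by 0.06 between the genotypes (p = 0.857), Pdilt minus P4hb by 0.54 (p = 0.429) and Hspa1l minus Hspa8 by −0.14 (p = 0.943), all by the exact permutation test. None of these 4 differences was larger than the SD over the 8 libraries. Pdilt minus P4hb was 0.11 without the library labelled Morc2b-/- replicate 3 and 0.95 without wild type replicate 1.

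Hspa2 minus Hspa8 was the only one of the 5 pairs in which the genotypes did not overlap. It was −7.96, −8.97, −9.08 and −8.54 in wild type replicates 1 to 4 and −10.75, −9.23, −9.63 and −10.64 in Morc2b-/- replicates 1 to 4. The difference of the means was −1.43 (exact permutation p = 0.029, the smallest the design allows, not adjusted for the 5 pairs). With any 1 of the 4 wild type libraries left out, the exact permutation p was 0.0571, and with any 1 Morc2b-/- library left out it was 0.0286. It combines the low Hspa2 counts given above with the high Hspa8 of Morc2b-/- replicates 1 and 4. Neither gene passed a test between genotypes on its own, and the value rests on 87 counts of Hspa2 and on an Hspa8 transcript with 69.5% of its windows matched elsewhere.

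**Figure D3:**
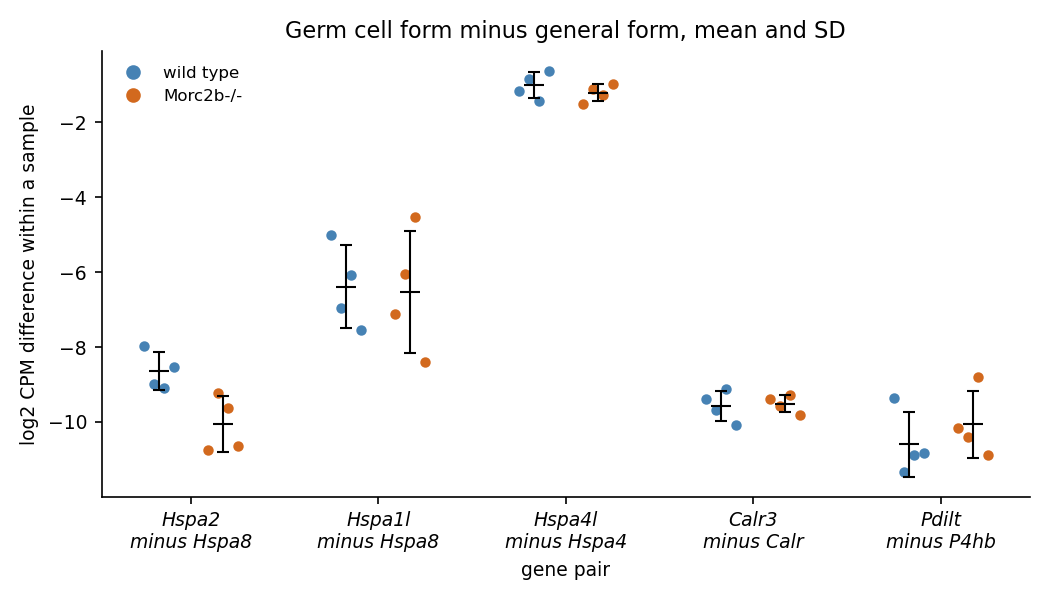
Log2 CPM of the germ cell form minus that of the general form within each sample, for 5 pairs; points are libraries, wild type in blue and Morc2b-/- in orange, with the mean and SD. The genotypes overlap in 4 pairs, and for Hspa2 minus Hspa8 they are separated by the gap between −9.08 and −9.23.

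The members fell into differing patterns over libraries. Hspa1l, Pdilt and Calr3 had their 2 highest values in wild type replicate 1 and the library labelled Morc2b-/- replicate 3, as did 9.37% of all tested genes. Those libraries had the highest spermatid marker sums. For Calr3 the margin was small, since those libraries were at 2.67 and 2.66 CPM and the next at 2.64 CPM. In the wider lists, this held for 9 of 73 tested genes, or 12.3%. Among them was Hspb9, a small heat shock protein of the testis, which was at 7.50 and 10.4 CPM against 0.0367 to 0.974 CPM elsewhere. Dnajb8 and Dnajb7 did not pass the filter on low counts and showed the same order. The J-domain gene Dnajb8 was at 2.64 and 4.64 CPM there and at 0.297 CPM or less elsewhere, and Dnajb7 was at 2.48 and 4.33 CPM against at most 0.487 CPM. Of the Dnajb8 exon bases, 53.1% lie opposite the gene 1700031F10Rik, so its counts are uncertain in that overlap, as for Hspa1l. Dnajb13, a J-domain protein of the sperm tail, was at 3.00 and 4.81 CPM against 0.464 to 2.26 CPM. The part of spermatid transcripts in the levels of Hspa1l and Pdilt was not tested.

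**Figure D4:**
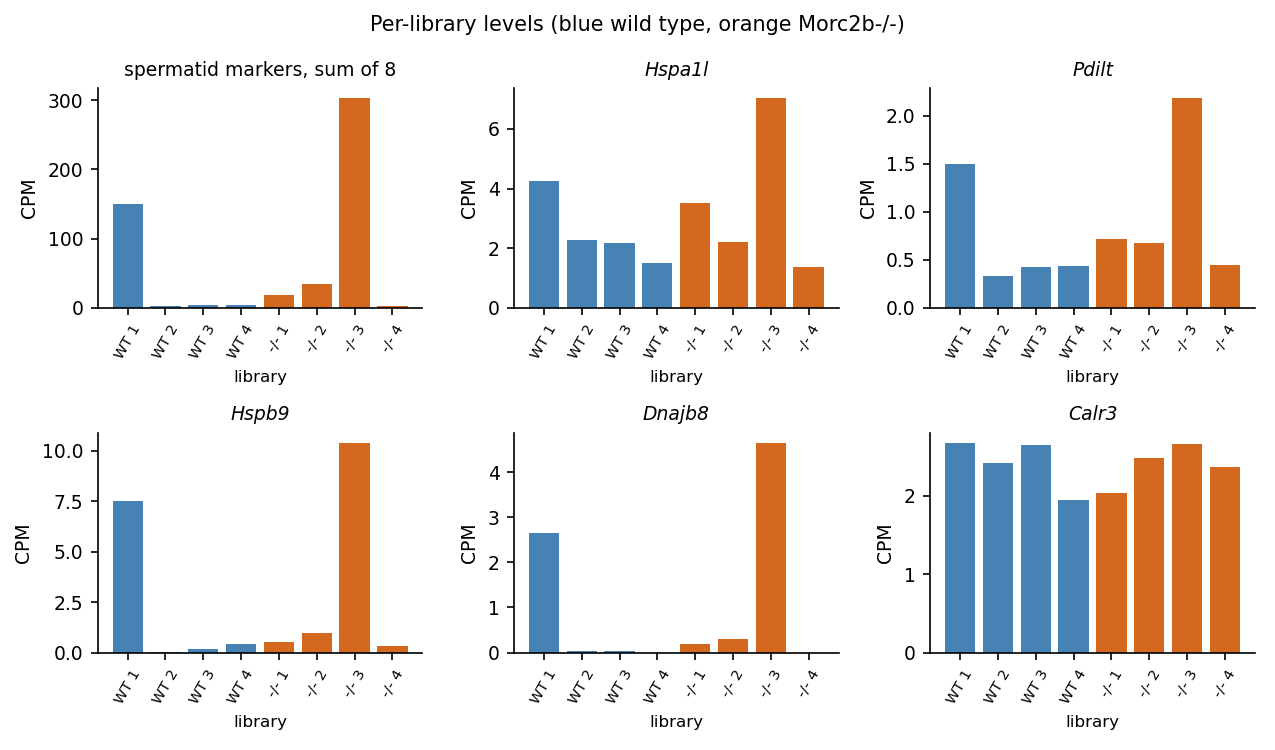
Level in each library (CPM, bars from 0; wild type blue, Morc2b-/- orange) of the summed 8 spermatid markers and of Hspa1l, Pdilt, Hspb9, Dnajb8 and Calr3. Wild type replicate 1 and the library labelled Morc2b-/- replicate 3 are highest in each panel, by a wide margin for the marker sum, Hspb9 and Dnajb8 and hardly at all for Calr3. Tnp1, Tnp2, Prm1 and Prm2 make up most of both high sums.

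Calr and Hspa4l followed another order. Wild type replicates 2 and 4 and Morc2b-/- replicate 4 had the highest leptotene and zygotene marker sums, 2721, 2869 and 2937 CPM, against 1601 to 2063 CPM in the other 5 libraries. The same 3 libraries were the highest for Calr and for Hspa4l, as for 6.03% of all tested genes, and the lowest for Hspa4, as for 7.96%. Of the markers, Sycp1, Sycp2, Sycp3 and Meiob were also highest in those libraries, and the Sycp genes made up most of each sum. Stra8, Dmc1, Hormad1 and Prdm9 followed other orders, with Stra8 lowest in wild type replicate 4, at 225 CPM. Over the 8 libraries, the level of Calr was most like that of Meiob, a meiotic recombination gene (Pearson r = 0.995 of log2 CPM, among 8841 genes with a mean of at least 5 CPM). Meiob is itself one of the markers in the sum. Genes most like the germ cell forms were Cep44, Tmem231 and Cep83os for Hspa4l (r = 0.995, 0.991 and 0.989), Gas6, Ctu2 and Zfp747 for Calr3 (0.977, 0.976 and 0.964), Cops6, Arpc3 and Oaz3 for Pdilt (0.983, 0.973 and 0.972), and Ncoa2, Lactb2 and Gm3219 for Hspa1l (0.964, 0.958 and 0.957). All these points share the same 8 libraries, and the highest of 8841 correlations over 8 points is large by selection.

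**Figure D5:**
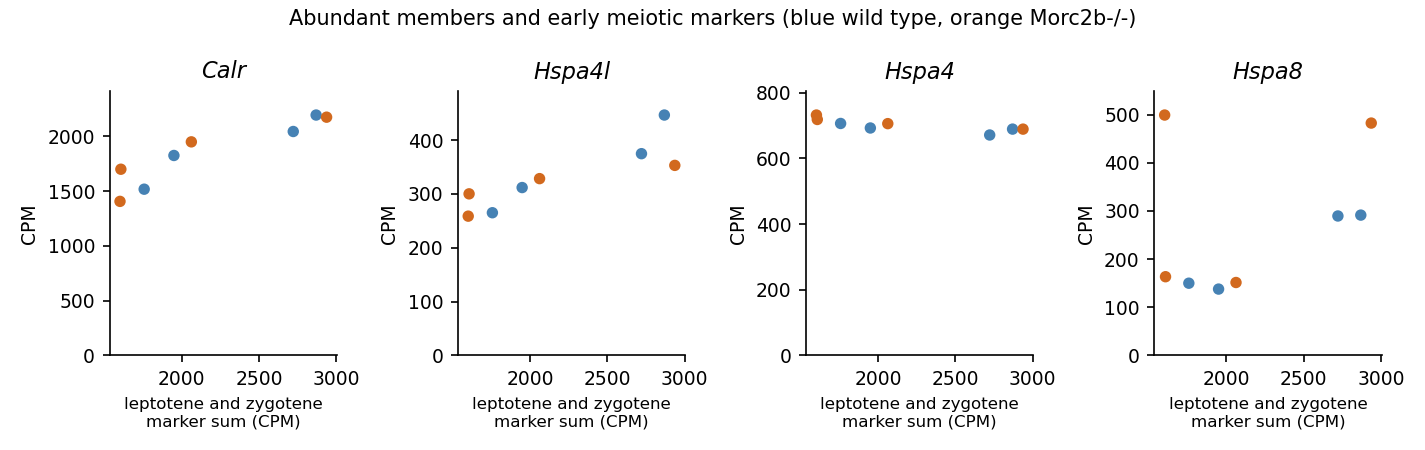
CPM of Calr, Hspa4l, Hspa4 and Hspa8 (from 0) against the summed CPM of 8 leptotene and zygotene markers, 1 point for each library, wild type in blue and Morc2b-/- in orange. Sycp1, Sycp2 and Sycp3 make up most of each sum. The 3 libraries with sums of 2721 to 2937 CPM are the highest for Calr and Hspa4l, Hspa4 is nearly level, and Hspa8 is high in both Morc2b-/- replicate 1 and Morc2b-/- replicate 4, which have sums of 1601 and 2937 CPM.

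The partners of these chaperones were read from 10 lists with 91 genes, of which 73 were tested. None passed the edgeR test in either direction, and 0 had an unadjusted p under 0.05, beside 1.84% of all tested genes. By direction, 33 log2 fold changes were above 0 and 40 below, with a median of −0.00. Among 10 further HSP70 and HSP110 genes, 8 were tested, and the most abundant, Hyou1 of the endoplasmic reticulum, was at 745 ± 70.1 CPM in wild type and 703 ± 53.4 CPM in Morc2b-/- testes (SD, n = 4 each). Hspa5, which encodes the main HSP70 of the endoplasmic reticulum, held only 77 counts on 2 listed transcripts and was not tested. Hsph1, an HSP110, was counted at 4.29 ± 0.472 and 4.31 ± 0.480 CPM, also on 2 listed transcripts, so reads on both were set aside. All 4 HSP90 genes were tested, led by Hsp90ab1 at 3450.3 ± 228 and 3498 ± 188 CPM.

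Of 17 J-domain partners, 14 were tested, with log2 fold changes from −0.20 to 0.14. Dnaja2, a cytosolic partner, was the most abundant at 494 ± 25.7 and 517 ± 24.6 CPM in wild type and Morc2b-/- testes (SD, n = 4 each), and the testis form Dnajb3 was at 12.1 ± 3.30 and 13.0 ± 4.55 CPM. Of 11 nucleotide exchange and co-chaperone genes, 8 were tested, with Stip1, which links HSP70 to HSP90, at 320 ± 18.3 and 323 ± 20.9 CPM. The 11 protein disulfide isomerases and related oxidases included 10 that were tested. Pdia3, which works with calnexin and calreticulin, was at 1125 ± 36.3 and 1106 ± 23.8 CPM, and P4hb at 968 ± 57.0 and 960 ± 54.9 CPM. In the glycoprotein folding cycle 7 of 8 genes were tested, and Uggt1, which returns unfolded glycoproteins to calreticulin, was at 382 ± 14.0 and 383 ± 25.0 CPM.

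Sperm surface clients of these chaperones and their partners were listed as 10 genes, of which 7 were tested. Tex101, a germ cell surface protein, was at 704 ± 185 CPM in wild type and 631 ± 194 CPM in Morc2b-/- testes (SD, n = 4 each). Adam2, which encodes fertilin beta, was at 12.2, 15.5, 0.787 and 44.7 CPM in wild type replicates 1 to 4 and at 0.582, 3.41, 8.11 and 6.50 CPM in Morc2b-/- replicates 1 to 4. Wild type replicate 3 lay with the lowest, and the log2 fold change of −1.98 ± 0.98 (SE) did not pass the edgeR test (adjusted p = 0.9998). Adam1a was at 8.95 ± 1.47 and 9.21 ± 0.858 CPM, and 33.7% of its windows matched elsewhere. Adam3, the protein that calsperin, calmegin and PDILT are known to fold, was listed at 0 counts in all libraries, on 2 transcripts.

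Among the chaperonin genes 8 of 9 were tested, and Cct8 was at 707 ± 46.8 and 673 ± 24.3 CPM in wild type and Morc2b-/- testes (SD, n = 4 each). Its subunit gene Cct6a was at 500.2 ± 27.5 and 501 ± 22.0 CPM on 1 listed transcript. The testis form Cct6b had 1 count in all on 2 listed transcripts, and the general subunits with 2, Tcp1 and Cct5, also held few counts, 732 and 1953, so the counts of these genes do not give their expression. Of 7 small heat shock proteins 5 were tested, led by Hspb1 at 24.6 ± 3.93 and 27.4 ± 4.92 CPM, a gene with 66.7% of its windows matched elsewhere. Of 4 heat shock factors 2 were tested, with Hsf2 at 98.6 ± 6.85 and 100.2 ± 3.29 CPM. The other, Hsf5, had a log2 fold change of −0.89 and did not pass the edgeR test. Besides Adam2, log2 fold changes beyond 1 were found for Prss37, a sperm protease-like protein (1.11), and Odf1, of the sperm tail (1.34), neither past the edgeR test, and both were highest in wild type replicate 1 and the library labelled Morc2b-/- replicate 3.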

How the data were processed

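RNA was taken from 8 pairs of testes at postnatal day 12, with a stranded mRNA kit. Reads were trimmed and mapped to NCBI37/mm9 with Tophat by the authors, who deposited raw counts per RefSeq transcript, 1 file for each sample, neither pooled nor normalized. Which program counted the reads, on which strand and with which annotation release, was not given in the sources used here. Tallies of reads that lay on several transcripts, or that aligned to several places, were kept apart and entered no library size.

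Of 35819 transcripts, 35517 were matched by accession to a symbol, and the 302 unmatched ones (0.504% of counts) stayed units of their own. Counts were summed per gene. The 2 genotypes were tested against each other in edgeR 4.0.16 under R 4.3.3 (TMM, filterByExpr, glmQLFit, glmQLFTest, genotype only) with Benjamini-Hochberg adjustment over all 13507 genes tested at a threshold of 0.05. CPM are TMM-normalized, and log2 CPM of single genes used a prior count of 2. Intervals cover 95%. The series design text calls the samples biological replicates. The median depth was 31684772 counts. Alternatives were DESeq2 1.42.0, limma-voom (limma 3.58.1), RLE normalization, 2 filters, prior counts, transcripts as units, the replicate number as a block and left-out libraries.

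Windows of 75 bases were searched in NCBIM37, and windows across exon junctions were searched as spliced, so small shares are approximate. Coordinates and transcripts are from GENCODE M1. Symbols were matched through RefSeq names. The code was tested on simulated counts. The members and lists were chosen with earlier results of these data known. The text names all members, the most abundant gene of each list, the germ cell and general forms set in a rule and any list gene with an unadjusted p under 0.05, of which there were 0. Dnajb7, Dnajb8, Prss37, Odf1, Hsf5, Meiob, Tcp1, Cct5 and Pkmyt1 were named after their values were seen, as were single cell type markers. Libraries were not paired by replicate number in the main fit. Same-numbered deviations correlated at −0.32 to 0.45 and differently numbered ones at −0.50 to 0.61, which is too few libraries to decide whether the numbers pair them.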

Additional observations from a re-analysis of the deposited data

How the results depend on the processing

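No member or listed chaperone gene was called in any of the alternatives, and DESeq2 called 1 gene of all tested where edgeR called 0. The paper used Cuffdiff with an expression cutoff in FPKM and an adjusted p under 0.05, so its test and filter differ from those used here. It reported more genes lower than higher in Morc2b-/- testes. Real-time PCR on independent testes of the same age bore out every gene it chose to check. The paper names Clgn, Adam2 and Adam3 among its differentially expressed genes. Clgn and Adam3 had 0 counts here and could not be tested, and Adam2 did not pass the edgeR test. Whether the replicate numbers pair the libraries was not settled, and the fit with the replicate number as a block called 0 genes (572 at an unadjusted p under 0.05, against 249). Of the 4 numbers, 2 correlated best with their own. For Hspa2 minus Hspa8, the block kept −1.43 with p = 0.125, the smallest that 4 pairs allow in the exact sign-flip permutation test. Leaving out wild type replicate 1 and the library labelled Morc2b-/- replicate 3 together gave −1.34 with p = 0.1, the smallest of 3 against 3 in the exact permutation test. Leaving out 1 library at a time gave −1.70 to −1.20 for this pair, with the exact permutation p at 0.0571 without any 1 wild type library, above the threshold of 0.05, and at 0.0286 without any 1 Morc2b-/- library. Pdilt minus P4hb ranged from 0.11 to 0.95 and Hspa4l minus Hspa4 from −0.33 to −0.07. The ranges that crossed 0 when 1 library was left out were −0.11 to 0.049 for Calr3, −0.17 to 0.033 for Calr, −0.11 to 0.83 for Hspa1l, −0.16 to 1.32 for Pdilt, −0.80 to 0.49 for Hspa1l minus Hspa8 and −0.11 to 0.21 for Calr3 minus Calr. The cause was not tested beyond the change in libraries. Low counts limit Hspa2, Pdilt, Hspa1l and Calr3, and uncounted reads limit Hspa8, Hspa2, Calr3, Clgn and Canx.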
